A study of Mus musculus with 32 samples.

Results

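The response of wild-type mouse aortic smooth muscle cells to 1% oxygen was measured in 6 RNA sequencing libraries of a study of 32. The libraries were chosen by their labels. There were 3 of WT vehicle cells in hypoxia and 3 of WT vehicle cells in normoxia, and no measured value entered the choice. The cells were a primary smooth muscle line of the C57BL/6 strain with wild-type Oct4 (Pou5f1, a pluripotency transcription factor). Both groups received vehicle, where other cells of the study received POVPC, an oxidised phospholipid of the kind found in atherosclerotic lesions. The labels give the oxygen level of the hypoxic cells only, and neither the length of hypoxia nor the composition of the vehicle. The study used 1 line per genotype, so the 6 libraries come from 1 WT line, and nothing says that the libraries of a group came from separate cultures. The p-values below measure the spread between these libraries, which may be technical. The same hypoxia comparison was made in KO vehicle cells, from an Oct4-/- line, and in WT POVPC cells, with 3 libraries per oxygen level in each, and these are used only to show where the WT vehicle response differs.

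Cells sense oxygen through hydroxylases that use it as a substrate. In normoxia the prolyl hydroxylases (Egln1 to Egln3) mark the alpha subunits of hypoxia-inducible factor (HIF) for VHL and destruction. In hypoxia HIF builds up, pairs with Arnt and binds DNA at a short core motif next to genes of glucose uptake, glycolysis, angiogenesis and mitophagy. Low oxygen also limits enzymes that need it directly, among them those that hydroxylate collagen and several that build cholesterol. Smooth muscle cells of the aorta contract, secrete elastin and collagen, and lose their contractile genes readily in culture.

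The hypoxia libraries held 28635595, 20145339 and 29426375 counted reads, against 25387586, 28346752 and 25375204 reads in normoxia. Hypoxia library 2 stood apart from the others. It had 3.14 alignments discarded for mapping to several places per counted read, where a read can give several alignments. The other hypoxia libraries had 1.24 and 0.952, and the normoxia libraries 1.3 to 1.96. Ribosomal and small RNA genes took 15.2% of the counts of library 2, against 5.4 and 5.63% in the other hypoxia libraries and 6.31 to 8.36% in normoxia. The first principal component of log CPM carried 85.8% of the variance and separated hypoxia from normoxia, and the second, with 5.67%, separated library 2 from the other hypoxia libraries. Leaving it out changed the count of calls in 16 of the 37 gene lists below, mostly by 1 member, and values without it are given where a count or median moved by over 1.5 times or, for ribosomal proteins, by many members. Oct4 itself had at most 1 read in any of the 6 libraries, so it checks no label.

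The smooth muscle label was checked against contractile markers. Acta2 (smooth muscle actin) had 30.5, 34.8 and 28.6 CPM in hypoxia, against 233, 280.4 and 275 CPM in normoxia. Cald1 (caldesmon) had 241, 185 and 216 CPM in hypoxia, against 1097, 1108 and 1087 CPM in normoxia. Tagln reached only 24.7, 27.6 and 19.3 CPM in hypoxia and 8.42, 8.81 and 9.94 CPM in normoxia, Myh11, Cnn1 and Myocd stayed below 6 CPM in every library, and Des had at most 5 reads in any library. Lmod1, Mylk and Smtn had 29.7 to 34.7, 35.1 to 36.4 and 34.6 to 37.9 CPM in normoxia. In hypoxia they had 2.86 to 4.17, 4.39 to 6.57 and 14.5 to 17.7 CPM. Of these markers Tagln, Myh11, Cnn1, Myocd and Des were thus low or absent in both groups, while Acta2 and caldesmon were present. Of the macrophage markers Emr1 and Tyrobp were at 0 in all 6 libraries, and Cldn5 of the endothelial markers was too.

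Of 23284 genes counted, 14496 had enough reads to be tested, with edgeR's quasi-likelihood test across all 24 culture libraries and Benjamini-Hochberg adjustment over all tested genes. An adjusted p under 0.05 is called a change below, and levels are CPM, counts scaled to library size after trimmed-mean (TMM) normalisation. Of these 9866 (68.1%) changed, with 4748 genes (32.8%) higher and 5118 (35.3%) lower in hypoxia. At least 2-fold changes were found for 1628 higher genes (11.2%) and 2541 lower genes (17.5%), and at least 16-fold changes for 206 (1.42%) and 218 (1.5%). The 3 hypoxia values lay wholly above the 3 normoxia values for 34.7% of tested genes and wholly below for 38%. The median log2 fold change (hypoxia over normoxia) of all tested genes was -0.032, so a list of genes is read against 32.8% higher, 35.3% lower and that median. Scaling by library size alone moved that median to -0.21, and 36.4% of its calls were higher in hypoxia, against 48.1% with TMM scaling. In this bulk RNA, fewer cells of a type and less RNA per cell cannot be told apart.

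The 4 genes that mark the comparison moved far beyond the spread between libraries. Pgk1, the glycolytic phosphoglycerate kinase, had 619.7, 621 and 592 CPM in hypoxia, against 22.2, 18.8 and 22.2 CPM in normoxia, a log2 fold change of 4.86 ± 0.087 (SE, edgeR adjusted p = 2.5e-26). Bnip3, a mitochondrial receptor for mitophagy, had 555, 583 and 517 CPM in hypoxia, against 16.6, 18.3 and 18.3 CPM in normoxia, a log2 fold change of 4.96 ± 0.11 (SE, edgeR adjusted p = 3.5e-24). Cyp51, the sterol demethylase of cholesterol synthesis, which consumes oxygen, had 3000.2, 2744 and 2618 CPM in hypoxia, against 159, 152 and 160.4 CPM in normoxia, a log2 fold change of 4.15 ± 0.11 (SE, edgeR adjusted p = 3.8e-23). The hypoxia libraries were all high and the groups lay far apart for each of these. Lum, the collagen-binding proteoglycan lumican, had 0 reads in all 3 hypoxia libraries, against 31.6, 33.9 and 30.4 CPM in normoxia. With 3 counts over the 3 libraries taken as the floor, it was at least 814-fold lower in hypoxia. Mates were counted singly, so both mates of a pair can add to a count, and this bound may be too large.

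**Figure D1:**
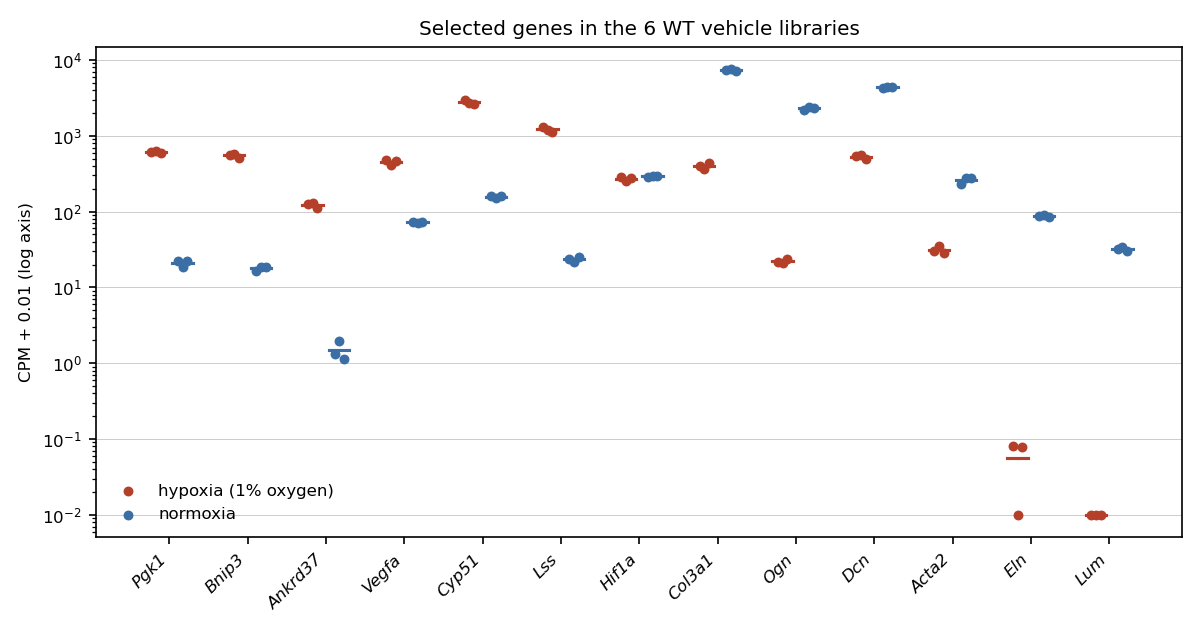
Level of 13 genes in each WT vehicle library, as CPM + 0.01 on a log axis. Each point is 1 library and each bar a group mean, with the 3 hypoxia libraries (red) left of the 3 normoxia libraries (blue). Pgk1, Bnip3, Ankrd37, Vegfa, Cyp51 and Lss are high in every hypoxia library, Hif1a lies at about the same level in both groups, and Col3a1, Ogn, Dcn, Acta2, Eln and Lum are low in every hypoxia library.

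Promoter sequence is shown for members at the ends of this response, since HIF binds the core RCGTG. The bases are the 250 before each gene's start in RefSeq (build GRCm38.p6, while the counts use mm9), written 5′ to 3′ on the gene's strand, with each ACGTG or GCGTG on either strand in capitals, so its complement CACGT or CACGC is in capitals too and matches that overlap run together. Pgk1, Bnip3, Ldha (lactate dehydrogenase A) and Ankrd37 rose strongly. Ogn (osteoglycin, a matrix proteoglycan) fell strongly.
Pgk1 (chrX:106186850-106187099, plus strand): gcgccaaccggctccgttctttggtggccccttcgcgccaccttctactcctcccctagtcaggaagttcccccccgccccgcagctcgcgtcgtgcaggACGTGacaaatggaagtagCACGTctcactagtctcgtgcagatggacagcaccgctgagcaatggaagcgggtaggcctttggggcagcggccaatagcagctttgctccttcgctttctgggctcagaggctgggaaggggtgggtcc
Bnip3 (chr7:138909507-138909756, minus strand): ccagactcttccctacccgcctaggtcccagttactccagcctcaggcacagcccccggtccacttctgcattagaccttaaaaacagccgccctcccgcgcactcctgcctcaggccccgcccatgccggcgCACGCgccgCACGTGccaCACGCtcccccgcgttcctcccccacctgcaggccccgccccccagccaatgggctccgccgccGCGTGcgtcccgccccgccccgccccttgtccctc
Ldha (chr7:46845554-46845803, plus strand, the first of 2 entries): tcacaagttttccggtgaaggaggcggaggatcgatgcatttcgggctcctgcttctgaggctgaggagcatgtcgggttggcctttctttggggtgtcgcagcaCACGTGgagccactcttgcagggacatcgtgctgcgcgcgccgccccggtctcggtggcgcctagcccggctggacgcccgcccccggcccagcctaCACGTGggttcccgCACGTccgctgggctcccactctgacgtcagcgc
Ankrd37 (chr8:45999851-46000100, minus strand): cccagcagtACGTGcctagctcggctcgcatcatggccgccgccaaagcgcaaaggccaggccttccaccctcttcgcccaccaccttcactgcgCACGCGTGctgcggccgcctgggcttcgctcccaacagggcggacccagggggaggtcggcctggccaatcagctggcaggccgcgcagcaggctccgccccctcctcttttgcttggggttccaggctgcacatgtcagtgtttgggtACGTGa
Ogn (chr13:49607765-49608014, plus strand): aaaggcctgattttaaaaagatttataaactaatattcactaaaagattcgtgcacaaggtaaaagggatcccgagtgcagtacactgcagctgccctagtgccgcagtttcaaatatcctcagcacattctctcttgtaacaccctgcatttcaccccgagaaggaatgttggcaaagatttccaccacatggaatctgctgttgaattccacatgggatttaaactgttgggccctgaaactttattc
The motif starts at 150 and 131 bases before the start in Pgk1. Bnip3 and Ldha hold 5 matches each, Ankrd37 holds 4 and Ogn holds 0. A CACGTG is counted once per strand, so these are not numbers of separate places. Of 14496 tested genes 8990 had exactly 1 promoter entry, and 55.8% of those promoters hold at least 1 match, so a match is a description of these letters and not a site. The share was 61.9% among genes that were higher in hypoxia (1913 of 3088) and 52.2% among those that were lower (1604 of 3074). It was 55.7% among those at least 2-fold higher and 46.2% among those at least 2-fold lower. Among those at least 16-fold higher it was 38% (49 of 129), and among those at least 16-fold lower 31.6% (37 of 117). Promoters of both 16-fold sets were poor in CpG, each with a median of 6 CpG against 16 over all promoters. By list, 9 of 12 glycolysis promoters and 14 of 15 promoters of HIF targets outside metabolism hold the motif, as do 10 of 14 cholesterol promoters and 16 of 22 of unfolded protein and ATF4 genes, against 6 of 15 of collagen chains and 3 of 12 of matrix proteoglycans and glycoproteins. The median number of CpG was 13.5, 22, 20.5, 17.5, 10 and 4 in these lists, in that order, and the part of CpG content in the shares of the lists was not tested. Promoters of the 2-fold sets were also split by CpG number, into 0 to 5, 6 to 15, 16 to 25 and over 25. Of those at least 2-fold higher 18.7, 55.8, 71.5 and 76.5% held the motif, in that order. Of those at least 2-fold lower it was 21.3, 44.0, 64.1 and 62.4%.

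Within the oxygen-sensing system the prolyl hydroxylases that restrain HIF rose, while the main alpha subunit did not pass the test. In this list 6 of 10 tested members were higher and 2 lower in hypoxia, with a median log2 fold change of 0.87. Egln3, a HIF prolyl hydroxylase, had 91.5, 96.6 and 99.2 CPM in hypoxia, against 2.45, 3.34 and 2.75 CPM in normoxia (log2 fold change 5.06). Egln1, the main one in most cells, had 365, 315 and 392 CPM in hypoxia, against 46.2, 48.4 and 48 CPM in normoxia (log2 fold change 2.91). Both were higher in every hypoxia library, and Egln2, Vhl and the ubiquitin ligase Siah2 were also called higher, by 0.55, 1.37 and 1.88 on the log2 scale. Hif1a mRNA had 289, 252 and 278 CPM in hypoxia, against 286, 291 and 294 CPM in normoxia, with overlapping groups and a log2 fold change of -0.089 ± 0.074 (SE). Epas1, the HIF-2 alpha subunit, was low throughout, with 4.48, 5.77 and 5.42 CPM in hypoxia, against 2.63, 2.1 and 2.1 CPM in normoxia, and was called higher by 1.19. The beta subunits Arnt and Arnt2 fell, with log2 fold changes of -0.7 and -1.82. Hif1an, which hydroxylates HIF at an asparagine, did not pass the test (0.12), and Hif3a was not tested because of its low counts.

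Glucose uptake and glycolysis rose as a block. In this list 19 of 21 tested members were higher and 1 lower in hypoxia, with a median log2 fold change of 3.7. Their summed level was 24809.6, 28039.5 and 24462 CPM in hypoxia, against 2057, 1989 and 2042 CPM in normoxia, a ratio of 12.7. Slc2a1, the glucose transporter GLUT1, had 352, 349 and 369.5 CPM in hypoxia, against 27.5, 26 and 28.8 CPM in normoxia (log2 fold change 3.7). Hk2, which traps glucose as its phosphate, had 291, 226 and 327 CPM in hypoxia, against 13.4, 13 and 12.1 CPM in normoxia (log2 fold change 4.46). Pfkfb3, which makes the activator of phosphofructokinase, had 251, 215 and 282 CPM in hypoxia, against 10.2, 10.05 and 8.28 CPM in normoxia (log2 fold change 4.71). For each of these the lowest hypoxia library was several times above the highest normoxia library. Pkm2 (pyruvate kinase M) had 7650.5, 8482 and 7259.5 CPM in hypoxia, against 526, 502 and 531 CPM in normoxia (log2 fold change 3.91). Ldha, which turns pyruvate into lactate, had 3967, 4877 and 3947 CPM in hypoxia, against 194, 187 and 197 CPM in normoxia (log2 fold change 4.47), and Slc16a3, the lactate exporter MCT4, was low, with 9.0, 8.79 and 7.95 CPM in hypoxia, against 1.37, 1.88 and 1.23 CPM in normoxia (log2 fold change 2.51). Gpi1, Pfkp, Aldoa and Pgam1 also rose, by 3.18, 4.13, 3.73 and 3.46 on the log2 scale. The exception was Pfkm, the muscle phosphofructokinase, chosen after its values were seen: it had 31.4, 25.4 and 27.3 CPM in hypoxia, against 114, 114 and 111 CPM in normoxia and fell, with a log2 fold change of -2.01. Gapdh, also chosen after its values were seen, had only 55.8, 59.6 and 54.4 CPM in hypoxia, against 4.39, 3.62 and 3.87 CPM in normoxia. Gapdh, Eno1, Ldha, Aldoa, Tpi1 and Pgk1 have near-identical copies in the genome, and reads that map to several places were not counted, so their levels are uncertain. Hypoxia library 2 was the highest of its group for Aldoa and Ldha, and without it 19 members were higher, with a median of 3.63.

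Enzymes at the gate between pyruvate and the mitochondrion split by isoform. Of this list, with glycogen enzymes included, 9 of 13 tested members were higher and 2 lower in hypoxia, with a median log2 fold change of 1.55. Pdk1, a kinase that shuts pyruvate dehydrogenase, had 407, 356 and 375 CPM in hypoxia, against 70.1, 67.3 and 68.4 CPM in normoxia (log2 fold change 2.47), and Pdk3 rose by 1.55. Pdk4, the isoform linked to fasting, had 7.5, 5.27 and 8.8 CPM in hypoxia, against 74.9, 70.1 and 66.6 CPM in normoxia and fell (-3.27), as did Pdk2 (-2.06). The glycogen enzymes Gys1 (glycogen synthase) and Gbe1 (branching enzyme) had 267 ± 34.9 CPM in hypoxia and 15.1 ± 1.77 CPM in normoxia, and 198 ± 6.62 CPM in hypoxia and 10.3 ± 0.523 CPM in normoxia (SD, n = 3 each). Gys1 and Gbe1 rose by log2 fold changes of 4.14 and 4.26. Higd1a, a small mitochondrial protein of the respiratory chain, had 259, 294 and 244 CPM in hypoxia, against 14.8, 15.1 and 13.9 CPM in normoxia (log2 fold change 4.19). Cox4i2 was not tested. Ndufa4l2 was near 0, and Ppp1r3c (-0.1) did not pass the test.

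The respiratory chain moved little beside this. Among its nuclear-encoded subunits 14 of 39 tested members were higher and 6 lower in hypoxia, with a median log2 fold change of 0.18, a share of lower calls below that of all genes. The median turned to -0.0071 under library size scaling alone, with 9 higher and 10 lower, and without hypoxia library 2 it was 0.023, with 11 higher and 8 lower. The largest rises were Cycs (cytochrome c, 1.26) and the ATP synthase subunit Atp5g1 (1.19), and the largest fall was Sdhc of succinate dehydrogenase (-0.6). Atp5b, an abundant ATP synthase subunit, had 2019, 2222 and 1822 CPM in hypoxia, against 1109, 1069.8 and 1138 CPM in normoxia (log2 fold change 0.87). In the tricarboxylic acid cycle list 9 of 19 tested members were higher and 6 lower in hypoxia, with a median log2 fold change of 0.11, a median that turned to -0.078 under library size scaling alone, with 5 higher and 8 lower. It was 0.048 without hypoxia library 2 and 0.19 without hypoxia library 3. Members moved both ways. Acly, which makes cytosolic acetyl-CoA from citrate, had 4659, 4032 and 4209 CPM in hypoxia, against 418, 415 and 417 CPM in normoxia (3.37 on the log2 scale), and cytosolic Idh1 rose by 1.68. Mitochondrial Idh2 had 49.2, 52.4 and 43.9 CPM in hypoxia, against 189, 179.8 and 181 CPM in normoxia (-1.92), and Suclg2 and Pcx (pyruvate carboxylase) fell, with log2 fold changes of -1.34 and -1.19.

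**Figure D2:**
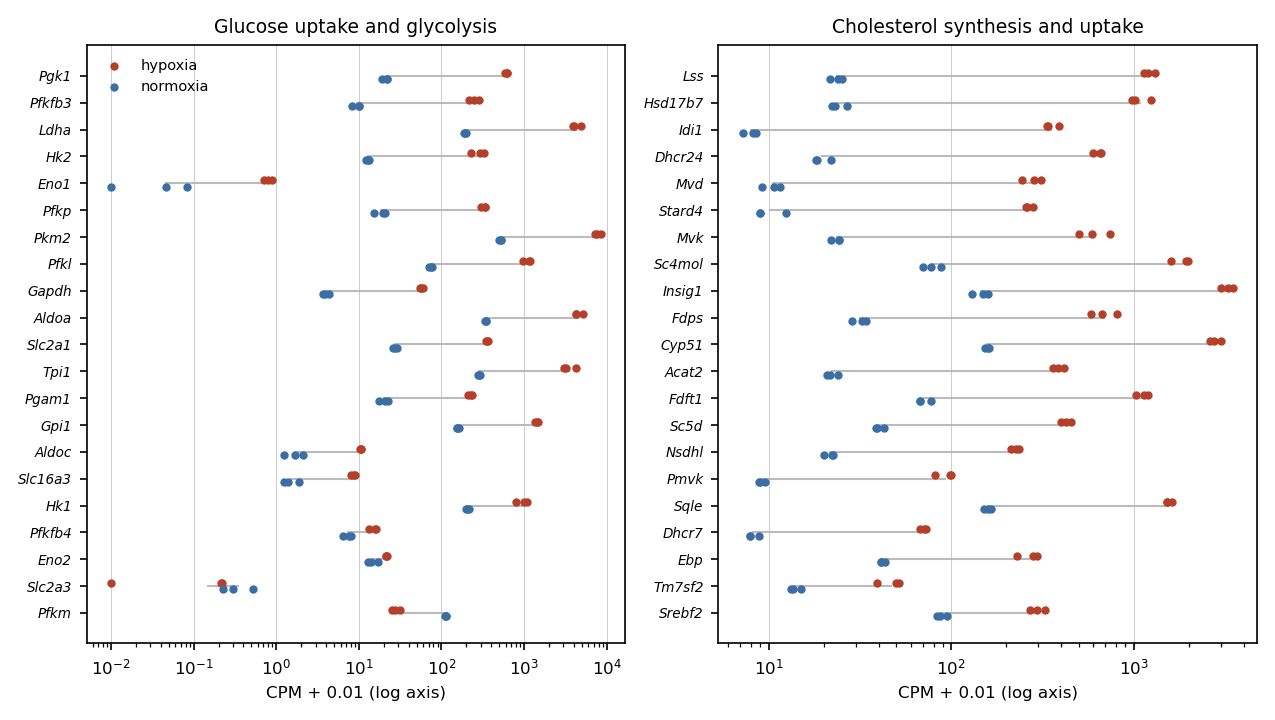
Level of each tested glycolysis gene and of 21 of the 24 tested cholesterol genes, as CPM + 0.01 on a log axis, with 1 gene per line and the largest log2 fold change at the top. Red points are the 3 hypoxia libraries, blue points the 3 normoxia libraries, and the grey line joins the group means. In the glycolysis panel 19 of 21 genes were called higher in hypoxia and Pfkm lower. In the cholesterol panel all 21 genes drawn were called higher.

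Known HIF targets outside metabolism mostly rose, with clear exceptions. In this list 23 of 29 tested members were higher and 5 lower in hypoxia, with a median log2 fold change of 1.58. Vegfa, the angiogenic growth factor, had 482, 418 and 465 CPM in hypoxia, against 73.4, 69.9 and 72.6 CPM in normoxia (log2 fold change 2.66 ± 0.084, SE). Ankrd37, a HIF-1 target of little known function, had 124, 132 and 113 CPM in hypoxia, against 1.3, 1.97 and 1.12 CPM in normoxia (log2 fold change 6.37). Bhlhe40, a transcriptional repressor, had 295, 274 and 323 CPM in hypoxia, against 7.42, 8.33 and 6.69 CPM in normoxia (log2 fold change 5.31). No hypoxia value of these came near a normoxia value. Tfrc, the transferrin receptor that brings in iron, had 569, 497 and 490.04 CPM in hypoxia, against 16.6, 16 and 15.7 CPM in normoxia (log2 fold change 5.01). Fam162a, Ero1l, Ndrg1, Hmox1, Hilpda, Igfbp3 and Plin2 rose by 4.11, 3.87, 2.84, 2.85, 2.77, 2.42 and 1.89 on the log2 scale. The carbonic anhydrases Car9 and Car12, classical HIF targets in tumour cells, went the other way from near-background levels. Car9 had 0.21, 0.165 and 0.474 CPM in hypoxia, against 0.90, 1.46 and 0.759 CPM in normoxia, and Car12 had 0.21, 0.11 and 0.203 CPM in hypoxia, against 0.936, 1.11 and 0.795 CPM in normoxia. Stc1 (stanniocalcin 1) was lower at a high level, with 25.4, 24.9 and 29.2 CPM in hypoxia, against 224, 247 and 240.4 CPM in normoxia (log2 fold change -3.16). Epo and Cxcr4 were not tested.

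MicroRNA 210 is the microRNA most often tied to HIF. Reads over its 110-base hairpin gene, Mir210, chosen after its values were seen, numbered 18, 6 and 8 in hypoxia, against 2, 3 and 2 in normoxia. Its log2 fold change was 2.3 ± 0.75 (SE, edgeR adjusted p = 0.0079), and the groups did not overlap. These libraries did not isolate mature microRNA, so the reads may come from the host transcript. The mature sequence in RefSeq (GRCm38.p6, chr7:141221407-141221428, minus strand), with its seed, bases 2 to 8, in capitals, is shown for reference.
mmu-miR-210-3p: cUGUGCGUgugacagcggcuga

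Mitophagy and autophagy genes were divided. In this list 10 of 18 tested members were higher and 6 lower in hypoxia, with a median log2 fold change of 0.31. Bnip3l, the paralogue of Bnip3, had 470.1, 444 and 471 CPM in hypoxia, against 141, 135 and 134 CPM in normoxia (log2 fold change 1.76). The cargo receptor Sqstm1 had 2191, 2354 and 2060.1 CPM in hypoxia, against 852, 829.6 and 821 CPM in normoxia (log2 fold change 1.4), and Map1lc3b, which coats autophagosomes, rose by 1.38. Hypoxia was above normoxia in every library for these. In the Parkin pathway Pink1 fell (-0.77), and Park2, near background, had 0, 0 and 0.0338 CPM in hypoxia, against 0.90, 1.49 and 0.687 CPM in normoxia.

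Cholesterol synthesis had the highest median of the 37 gene lists. In it 23 of 24 tested members were higher and 0 lower in hypoxia, with a median log2 fold change of 4.06, and the summed level was 20480.0, 19371 and 18053 CPM in hypoxia, against 1187, 1069 and 1146 CPM in normoxia, a ratio of 17. Idi1, an isomerase of the isoprenoid steps, had 390.4, 338 and 333 CPM in hypoxia, against 7.2, 8.23 and 8.49 CPM in normoxia (log2 fold change 5.47). Lss, which closes the sterol rings, had 1306, 1194 and 1137 CPM in hypoxia, against 24, 21.7 and 25.3 CPM in normoxia (log2 fold change 5.68). Each hypoxia library was far above normoxia, and the steps that need molecular oxygen moved in the same direction as those that do not. Of the oxygen-requiring enzymes Sqle (squalene epoxidase) had 1630.5, 1523 and 1523 CPM in hypoxia, against 165, 152 and 159.8 CPM in normoxia (log2 fold change 3.29). Sc4mol (sterol methyl oxidase) had 1992, 1927 and 1611 CPM in hypoxia, against 88.1, 69.7 and 77.1 CPM in normoxia (log2 fold change 4.56). The desaturase Sc5d and the sterol reductase Hsd17b7 rose by 3.42 and 5.49, and Acat2 and the sterol carrier Stard4 by 4.13 and 4.72. Insig1, which holds the sterol sensor in the endoplasmic reticulum and was chosen after its values were seen, had 3481, 3304 and 3018 CPM in hypoxia, against 158, 131 and 149 CPM in normoxia. Srebf2, the transcription factor of this pathway, named likewise, rose by 1.75 on the log2 scale. Hmgcs1 was at 0 in all 24 libraries and was not tested.

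The box CCAAT, bound by NF-Y, is common beside sterol genes and was in 13 of 14 cholesterol promoters, against 37.2% of all 8990 promoters. It was also in 16 of 22 promoters of unfolded protein and ATF4 genes, 8 of 15 of collagen chains and 7 of 15 of HIF targets outside metabolism. CCAAT on either strand is in capitals below (its complement is ATTGG), in the 250 bases before the start of Hsd17b7 and Cyp51, both of which rose.
Hsd17b7 (chr1:169969206-169969455, minus strand, GRCm38.p6): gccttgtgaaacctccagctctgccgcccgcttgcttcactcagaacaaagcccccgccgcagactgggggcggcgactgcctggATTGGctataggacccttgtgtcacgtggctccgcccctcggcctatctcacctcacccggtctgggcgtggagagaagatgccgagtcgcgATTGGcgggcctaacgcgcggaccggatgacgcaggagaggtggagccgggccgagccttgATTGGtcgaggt
Cyp51 (chr5:4104698-4104947, minus strand, GRCm38.p6): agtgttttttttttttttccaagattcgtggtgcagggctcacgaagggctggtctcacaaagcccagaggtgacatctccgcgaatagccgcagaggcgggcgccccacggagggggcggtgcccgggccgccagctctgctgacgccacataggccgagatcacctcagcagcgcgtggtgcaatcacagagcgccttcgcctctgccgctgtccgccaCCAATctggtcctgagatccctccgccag
Hsd17b7 holds 3 boxes and Cyp51 holds 1, at 29 bases before the start. The classical sterol element TCACNCCAC, searched on both strands, was in 0 of 14 cholesterol promoters and in 0.968% of all, so these letters were not in this window.

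Fatty acid synthesis rose as well. In this list 15 of 17 tested members were higher and 2 lower in hypoxia, with a median log2 fold change of 1.78, and the summed level was 19718, 17355 and 19767 CPM in hypoxia, against 2882, 2779 and 2734 CPM in normoxia. Scd1 (stearoyl-CoA desaturase, which also uses oxygen) had 2617, 2255 and 2485 CPM in hypoxia, against 205, 195 and 197 CPM in normoxia (log2 fold change 3.63). Scd2 had 5973, 5220.1 and 6423 CPM in hypoxia, against 1138, 1088 and 1046 CPM in normoxia (log2 fold change 2.43), and Fasn (fatty acid synthase), chosen after its values were seen, had 4158, 3752 and 4465 CPM in hypoxia, against 400.3, 382 and 370.5 CPM in normoxia (log2 fold change 3.42). All 3 had no hypoxia value near normoxia. Elovl6, Acss2, Fads2 and Acaca rose by 3.69, 3.8, 2.96 and 1.78. Gpam, which starts triglyceride synthesis, fell (-1.44). Lipid storage and transport genes were divided: 8 of 18 tested members were higher and 6 lower in hypoxia, with a median log2 fold change of 0.29, a median that was 0.19 without hypoxia library 3. The droplet proteins Plin2 and Hilpda rose, as did Dgat2 (3.45) and Fabp5 (1.65). The cholesterol exporter Abca1 had 47.3, 38.3 and 50.2 CPM in hypoxia, against 179, 171 and 162 CPM in normoxia (-1.91), and Apoe had 4.27, 5.38 and 4.67 CPM in hypoxia, against 19.5, 27.1 and 23.7 CPM in normoxia (-2.3). Plin1, Cd36, Abcg1 and Cidea were not tested.

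Collagen chains had the lowest median of the 37 lists. Of them 2 of 21 tested members were higher and 19 lower in hypoxia, with a median log2 fold change of -2.67, and their summed level was 2926, 2729.6 and 3115 CPM in hypoxia, against 22864, 22299.6 and 21907 CPM in normoxia. Col1a2, a chain of type I collagen, had 522, 449.7 and 535 CPM in hypoxia, against 6332, 6141 and 5868 CPM in normoxia (log2 fold change -3.61). Col3a1, chosen after its values were seen, had 400.3, 367 and 434 CPM in hypoxia, against 7341, 7544 and 7228 CPM in normoxia (log2 fold change -4.2). Col5a2 had 448, 384 and 400.2 CPM in hypoxia, against 3488, 3179 and 3246 CPM in normoxia (log2 fold change -3.01). Hypoxia was far below normoxia in every library for these 3. The partner chain of type I collagen fell less: Col1a1, also chosen after its values were seen, had 530.1, 646 and 701 CPM in hypoxia, against 1186, 1132 and 1291 CPM in normoxia (log2 fold change -0.94). Col6a1, Col6a2, Col11a1, Col4a5 and Col15a1 fell, with log2 fold changes of -3.34, -3.57, -4.33, -2.92 and -3.77. The 2 chains that rose, named after their values were seen, were Col12a1 (2.17) and Col7a1 (1.94).

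Of the proteoglycans and other matrix glycoproteins 2 of 26 tested members were higher and 21 lower in hypoxia, with a median log2 fold change of -1.97. Ogn had 21.6, 20.9 and 23.4 CPM in hypoxia, against 2191, 2396 and 2334 CPM in normoxia (log2 fold change -6.71). Dcn (decorin), among the most abundant transcripts of normoxic cells per length, had 534, 552 and 497 CPM in hypoxia, against 4324, 4359 and 4360.2 CPM in normoxia (log2 fold change -3.04). Eln (elastin), the rubber protein of the aortic wall, had 0.0701, 0 and 0.0677 CPM in hypoxia, against 86.6, 91.1 and 84.1 CPM in normoxia (log2 fold change -10.56). Eln was almost gone in hypoxia, and no hypoxia value of Ogn or Dcn came near a normoxia value. Aspn, Thbs2 and Postn fell, with log2 fold changes of -7.77, -6.46 and -4.92, and Fbn1 and Fbln5 of the elastic fibre fell too, at -1.86 and -1.43. Fn1 (fibronectin), chosen after its values were seen, had 1420.5, 1380.2 and 1849 CPM in hypoxia, against 1787, 1597 and 1578 CPM in normoxia, and did not pass the test (-0.094). The 2 that rose were Fbln2 (0.95) and Spp1 (osteopontin, 2.91), both named after their values were seen.

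Collagen-modifying enzymes were divided. In this list 8 of 15 tested members were higher and 6 lower in hypoxia, with a median log2 fold change of 0.28. P4ha1, a collagen prolyl hydroxylase that uses oxygen, had 1989.8, 1780.3 and 1901 CPM in hypoxia, against 301, 279.6 and 282 CPM in normoxia (log2 fold change 2.72). Plod2, a lysyl hydroxylase, had 650.1, 568 and 652 CPM in hypoxia, against 147, 143 and 139.6 CPM in normoxia (log2 fold change 2.12), and P4ha2 rose by 3.05. These are known HIF targets, and all 3 were higher in every hypoxia library. P4ha3, another alpha subunit, had 9.21, 10.2 and 9.75 CPM in hypoxia, against 109, 135 and 125 CPM in normoxia and fell (-3.66). The crosslinkers Loxl1 and Loxl3 fell, with log2 fold changes of -4.15 and -3.37, Lox (0.38) and Loxl2 (0.77) rose, and Plod3 did not pass the test (0.11). Among proteases and their inhibitors 5 of 21 tested members were higher and 14 lower in hypoxia, with a median log2 fold change of -1.64. Mmp2 (gelatinase A) had 47.8, 39.97 and 55.4 CPM in hypoxia, against 444, 515 and 459.7 CPM in normoxia (log2 fold change -3.31), and its activator Mmp14 fell, at -2.28. Adamts4 and Adamts5, which cut aggrecan and versican, fell, with log2 fold changes of -7.11 and -3.37. Mmp9 and Timp4 were not tested.

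**Figure D3:**
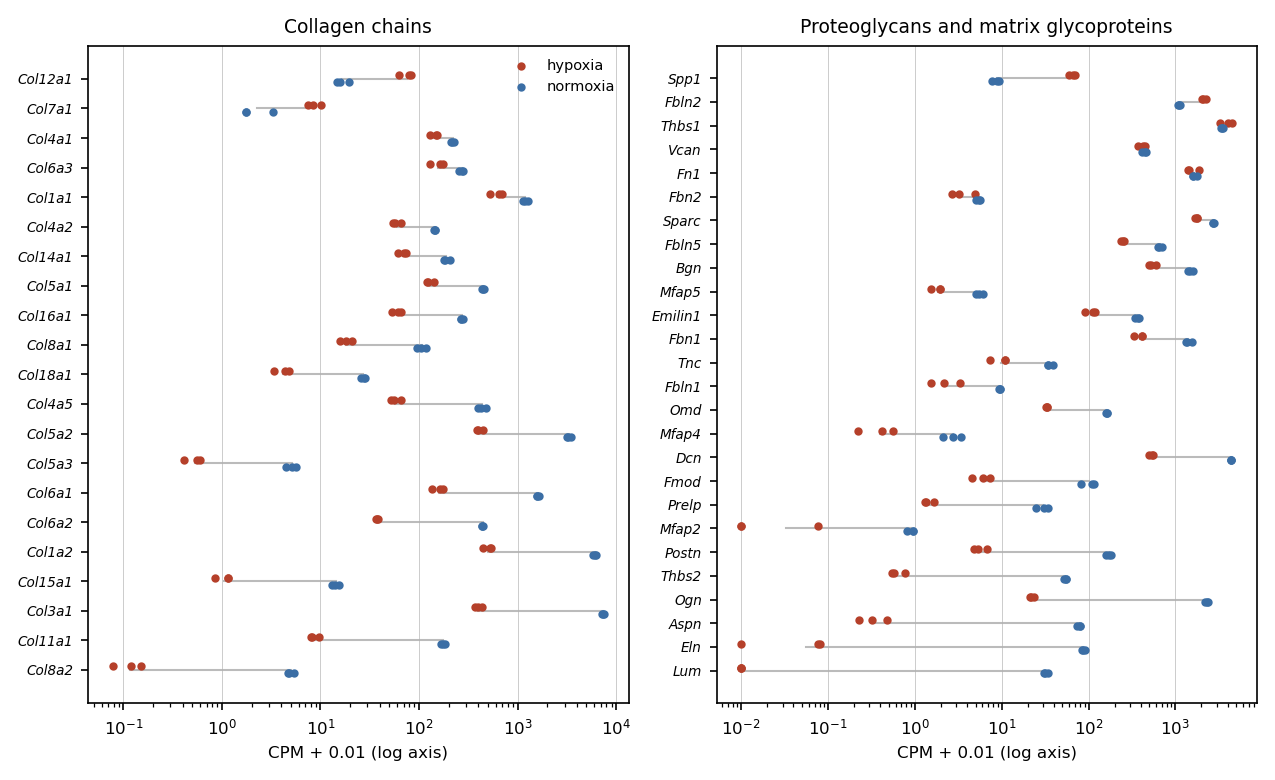
Level of each tested collagen chain and each tested proteoglycan or matrix glycoprotein, as CPM + 0.01 on a log axis, with 1 gene per line. Red points are the 3 hypoxia libraries, blue points the 3 normoxia libraries, and the grey line joins the group means. Of the collagens 19 of 21 and of the proteoglycans and glycoproteins 21 of 26 were called lower in hypoxia.

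Contractile genes fell too. In this list 1 of 17 tested members were higher and 14 lower in hypoxia, with a median log2 fold change of -1.2, and the summed level was 662, 593 and 617 CPM in hypoxia, against 1979, 2037 and 2019 CPM in normoxia. Acta2 and Cald1, given above, fell, with log2 fold changes of -3.07 and -2.36. Itga8, an integrin of smooth muscle, had 0.28, 0.384 and 0.0677 CPM in hypoxia, against 29.6, 30.8 and 31.9 CPM in normoxia (log2 fold change -7.07). Lmod1, Mylk and Smtn fell, at -3.18, -2.7 and -1.2. The exception was Tagln, which was higher in hypoxia (1.39) at the low levels given above. Macrophage and endothelial markers were low, while some markers of adventitial fibroblasts reached the level of Acta2. The macrophage list summed to 20.2 to 24.8 CPM in hypoxia and 29.96 to 32.7 CPM in normoxia, with 5 of 10 markers tested. Most of it was Cd14 (18, 17.5 and 13.4 CPM in hypoxia and 30.2, 28.6 and 26.6 CPM in normoxia). Of the 5 tested, 2 were higher and 1 lower in hypoxia, with a median log2 fold change of 1.02. That median was 0.55 without hypoxia library 3. Cd68 went the other way from Cd14, with 5.15, 4.5 and 5.69 CPM in hypoxia, against 1.84, 2.07 and 2.49 CPM in normoxia. Lyz2, below 1 CPM, was also higher in every hypoxia library. The endothelial list summed to 1.39 to 1.70 CPM in hypoxia and 3.14 to 4.04 CPM in normoxia, with 4 of 10 tested. The adventitial fibroblast list summed to 151 to 159.6 CPM in hypoxia and 473 to 509 CPM in normoxia, and in it 2 of 9 tested members were higher and 5 lower in hypoxia, with a median log2 fold change of -0.71, and with 3 lower without hypoxia library 2. Pdgfra, a receptor of fibroblasts, had 7.11, 5.16 and 7.14 CPM in hypoxia, against 267, 276 and 254 CPM in normoxia (log2 fold change -5.34), while Ly6a (Sca-1, a progenitor marker) had 52.9, 60.3 and 54.9 CPM in hypoxia, against 9.76, 8.87 and 9.03 CPM in normoxia (log2 fold change 2.6). The part of a shift in cell types in these changes was not tested.

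Growth factors and their receptors leaned lower. In this list 8 of 33 tested members were higher and 17 lower in hypoxia, with a median log2 fold change of -0.82. The platelet-derived growth factor receptor Pdgfrb had 46, 41.5 and 58.5 CPM in hypoxia, against 432, 488 and 461 CPM in normoxia (log2 fold change -3.24). Figf (VEGF-D) had 153, 155 and 162 CPM in hypoxia, against 705, 660.1 and 671 CPM in normoxia (log2 fold change -2.11), and Flt1, the VEGF receptor 1, had 19, 15.4 and 21.7 CPM in hypoxia, against 1.73, 2.03 and 1.55 CPM in normoxia (log2 fold change 3.4). Fgfr1 and Hgf fell, with log2 fold changes of -2.42 and -4.21, and Hbegf rose by 1.76. Among TGF-beta, BMP and CCN genes 7 of 30 tested members were higher and 18 lower in hypoxia, with a median log2 fold change of -0.75. Ltbp1, which stores latent TGF-beta in the matrix, had 790.3, 629.7 and 767 CPM in hypoxia, against 2919, 2664 and 2706 CPM in normoxia (log2 fold change -1.92). Tgfb2 and Tgfb3 fell, at -1.79 and -2.12, as did Wisp2, at -5.23. Ctgf, a matricellular CCN protein, went the other way, with 1099.9, 1047 and 1090.5 CPM in hypoxia, against 335, 296 and 293 CPM in normoxia (log2 fold change 1.81). Semaphorins, Slits and guidance receptors also leaned lower: 7 of 27 tested members were higher and 15 lower in hypoxia, with a median log2 fold change of -1.0. Sema3c had 401, 352 and 375 CPM in hypoxia, against 1036, 991 and 1038 CPM in normoxia (-1.44), and Slit3 (-3.99) and Slit2 (2.26) moved in opposite directions.

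Stress programmes leaned higher. Among unfolded protein and ATF4 genes 19 of 25 tested members were higher and 5 lower in hypoxia, with a median log2 fold change of 0.86. Atf4, a factor made in response to amino acid shortage and endoplasmic reticulum stress, had 772, 784 and 697 CPM in hypoxia, against 209, 194 and 203 CPM in normoxia (log2 fold change 1.9). Trib3, a pseudokinase induced by ATF4, had 103, 116 and 105 CPM in hypoxia, against 4.68, 5.31 and 4.05 CPM in normoxia (log2 fold change 4.52). Asns (asparagine synthetase) had 169.96, 184 and 164 CPM in hypoxia, against 16.1, 15.3 and 15.8 CPM in normoxia (log2 fold change 3.46). No hypoxia value overlapped with normoxia for these. Slc7a11, the cystine importer, rose by 4.46, and the serine enzymes Psat1 and Phgdh by 2.18 and 1.74. Chaperones were uneven and are named after their values were seen: Hspa5 (BiP) rose by 0.69 and Hsp90b1 (GRP94), Pdia4 and Pdia6 fell, with log2 fold changes of -0.28, -0.63 and -0.59. In the promoters of this list TGATGNAA, the letters of an ATF4 composite element, was found on either strand in 5 of 22, against 1.91% of all.

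Among NRF2 targets, the antioxidant programme, 16 of 18 tested members were higher and 1 lower in hypoxia, with a median log2 fold change of 1.31. Nfe2l2 itself had 319, 298 and 341 CPM in hypoxia, against 78.7, 87.2 and 84 CPM in normoxia (log2 fold change 1.94). Hmox1 (heme oxygenase 1) had 125, 102 and 131 CPM in hypoxia, against 16.6, 17.1 and 15.8 CPM in normoxia (log2 fold change 2.85). Srxn1, Pgd and Txnrd1 rose by 1.97, 2.33 and 1.3. The genes of this list named here are all among those that rose, and each was higher in all hypoxia libraries. The 1 member called lower is not among them. Of the iron genes 7 of 13 tested members were higher and 4 lower in hypoxia, with a median log2 fold change of 0.38. Tfrc is given above, and Ftl1 (ferritin light chain) had 364, 508 and 457 CPM in hypoxia, against 153, 173 and 166 CPM in normoxia (1.44), while Iscu, a scaffold for iron-sulfur clusters, had 12.8, 16.3 and 11.1 CPM in hypoxia, against 42.5, 42.1 and 45.2 CPM in normoxia and fell (-1.7). Among heat shock genes 9 of 16 tested members were higher and 3 lower in hypoxia, with a median log2 fold change of 0.55, led by Hspd1 (1.63) and Hsp90aa1 (1.5). Hspb8 (0.15) and Hsf1 (0.091), the master factor, did not pass the test.

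Immediate early factors were higher in hypoxia without exception among those that passed: 19 of 22 tested members were higher and 0 lower in hypoxia, with a median log2 fold change of 1.66. Myc had 80.7, 85.8 and 111 CPM in hypoxia, against 10.1, 12.4 and 9.58 CPM in normoxia (log2 fold change 3.11). Maff, a small Maf factor, had 139, 135 and 123 CPM in hypoxia, against 11.4, 13.4 and 13.7 CPM in normoxia (log2 fold change 3.37). Ier3 and Dusp6 rose by 3.21 and 2.21, and Klf4, a repressor of contractile genes, had 228, 231 and 265 CPM in hypoxia, against 75.1, 78.5 and 76.7 CPM in normoxia (log2 fold change 1.65). Among cell cycle brakes and p53 targets 13 of 21 tested members were higher and 7 lower in hypoxia, with a median log2 fold change of 0.37, with 8 higher and 7 lower under library size scaling alone. Ccnd1 (cyclin D1, a driver of the cell cycle and not a brake) had 1169, 1012 and 1042 CPM in hypoxia, against 494, 399 and 424 CPM in normoxia (log2 fold change 1.29). Gadd45b rose by 1.46, and Sesn1, Cdkn2a and Cdkn2c fell, with log2 fold changes of -2.09, -1.9 and -1.7.

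Replication genes leaned higher and mitosis genes did not. In the replication and S phase list 18 of 30 tested members were higher and 2 lower in hypoxia, with a median log2 fold change of 0.57. Pcna, the sliding clamp of replication, had 178, 203 and 167 CPM in hypoxia, against 50.7, 47.3 and 46.5 CPM in normoxia (log2 fold change 1.92). The helicase subunits Mcm2 to Mcm7 rose by 1.39, 1.9, 1.31, 1.6, 0.86 and 1.22 on the log2 scale, with Mcm3 at 78.6, 75.9 and 75.7 CPM in hypoxia, against 23.6, 18.9 and 19.3 CPM in normoxia. In the mitosis list 4 of 26 tested members were higher and 7 lower in hypoxia, with a median log2 fold change of -0.26, a smaller share of calls than over all genes, and the median was -0.17 without hypoxia library 3. Cdk1 had 11.3, 12.1 and 7.92 CPM in hypoxia, against 22.2, 19.2 and 19 CPM in normoxia (log2 fold change -0.95), Top2a and Bub1b fell, at -0.85 and -1.33, and Kif23 rose (2.85). Levels in this list were low, with most members under 20 CPM in both groups. Repair genes of homologous recombination and mismatch repair had 4 of 16 higher and 3 lower, with a median of -0.18. That median was -0.054 without hypoxia library 2 and -0.068 without normoxia library 1, and library size scaling alone gave 3 higher and 7 lower. Brca1 rose (0.58), Xrcc3 fell (-1.11), and Rad52 (0.15) did not pass the test.

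Ribosomal genes were higher in hypoxia. Of the cytosolic ribosomal proteins 30 of 33 tested members were higher and 0 lower in hypoxia, with a median log2 fold change of 0.56, and their summed level was 14895, 20238 and 13910.0 CPM in hypoxia, against 9826, 9827 and 10105 CPM in normoxia. Library 2 gave the highest sum of its group, and without it 23 were higher and 0 lower, with a median of 0.41. The part of its RNA or library quality in the ribosomal values was not tested, and ribosomal protein genes have many near-identical copies, which makes their counts uncertain. Among ribosome biogenesis genes 19 of 20 tested members were higher and 0 lower in hypoxia, with a median log2 fold change of 1.01. Ncl (nucleolin) had 318, 275 and 349 CPM in hypoxia, against 104, 119 and 109.7 CPM in normoxia (log2 fold change 1.5), and Nop56 and Npm1 rose by 1.8 and 1.23. Their summed level was 2964, 2813 and 2873 CPM in hypoxia, against 1265, 1273 and 1273 CPM in normoxia, with library 2 the lowest of the hypoxia libraries.

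Inflammatory and interferon genes did not rise as groups. Of the inflammatory list 4 of 18 tested members were higher and 9 lower in hypoxia, with a median log2 fold change of -0.26. Cxcl1 had 7.88, 9.0 and 7.58 CPM in hypoxia, against 65.2, 61.1 and 67.6 CPM in normoxia (log2 fold change -2.99) and Ccl7 had 5.29, 5.05 and 4.4 CPM in hypoxia, against 31.5, 31.6 and 31.9 CPM in normoxia (log2 fold change -2.69), both neutrophil or monocyte chemokines. Il33, an alarmin, went the other way, with 466, 399 and 502 CPM in hypoxia, against 136, 135 and 126 CPM in normoxia (log2 fold change 1.78), and Ptgs2 rose by 1.08. Il1a, Il1b, Tnf, Ccl5, Ccl20, Cxcl2 and Cxcl10 were not tested. Of the interferon-stimulated genes 3 of 18 tested members were higher and 11 lower in hypoxia, with a median log2 fold change of -0.64. Ifit3 had 1.79, 1.87 and 2.4 CPM in hypoxia, against 26.5, 28.4 and 31.9 CPM in normoxia (log2 fold change -3.83), Ifit2 fell, at -0.94, and the guanylate-binding protein Gbp2 had 56.4, 53.5 and 59.4 CPM in hypoxia, against 14.2, 11.3 and 13.8 CPM in normoxia (log2 fold change 2.11).

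Oxygen-dependent histone demethylases and TET enzymes were evenly divided: 7 of 21 tested members were higher and 7 lower in hypoxia, with a median log2 fold change of -0.039, a median that was 0.0027 without hypoxia library 2, -0.080 without hypoxia library 3 and -0.013 without normoxia library 2. Kdm3a, a known HIF target, had 384, 336 and 402 CPM in hypoxia, against 70.4, 72.2 and 66.9 CPM in normoxia (log2 fold change 2.42), and Jmjd6 and Kdm4b rose by 2.69 and 1.07. Jhdm1d fell (-1.35), as did Tet1 (-0.83) and Tet3 (-0.76), while Tet2 rose (0.69). Of the pH and carbon dioxide genes 7 of 15 tested members were higher and 5 lower in hypoxia, with a median log2 fold change of 0.28. Bsg (basigin, the chaperone of lactate transporters) had 5648, 6926 and 5804 CPM in hypoxia, against 882, 876 and 866 CPM in normoxia (log2 fold change 2.81), and its partner Slc16a1 (MCT1) had 292, 248 and 251 CPM in hypoxia, against 34.7, 31.1 and 32.9 CPM in normoxia (log2 fold change 3.0). Atp6v1a of the proton pump did not pass the test (0.13). Among clock genes 4 of 15 tested members were higher and 7 lower in hypoxia, with a median log2 fold change of -0.21, with Nfil3 higher (1.79) and Tef, a clock output factor, at 64.3, 54.6 and 56.8 CPM in hypoxia, against 191, 175 and 169.8 CPM in normoxia (-1.61).

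**Figure D4:**
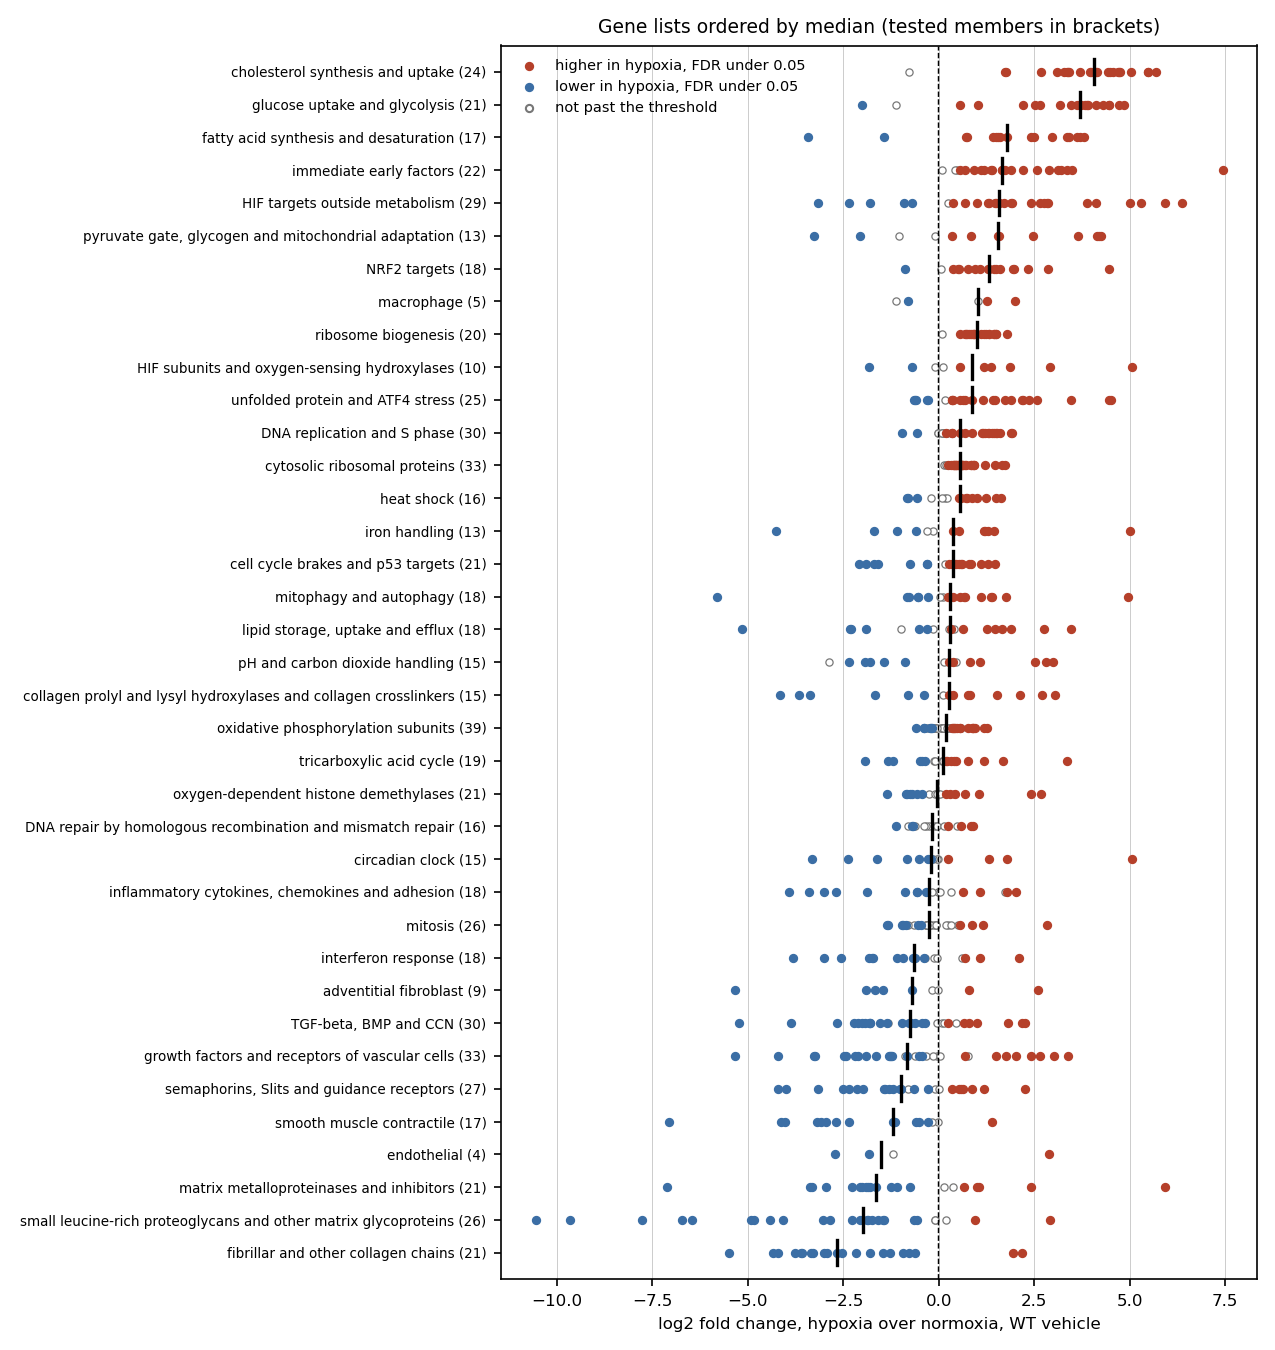
Log2 fold change (hypoxia over normoxia) of each tested member of the 37 gene lists, ordered by list median. Each point is 1 gene, filled red where called higher, filled blue where called lower and open where it did not pass, and black bars are medians, with genes at 0 in a whole group drawn at their bound, and the dashed line is the median of all tested genes. Cholesterol synthesis (median 4.06) and glycolysis (3.70) stand at one end and collagen chains (-2.67) at the other.

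The 20 largest rises among called genes of at least 5 CPM brought genes that no list held. Kng1, kininogen 1, the precursor of bradykinin, had 26.8, 27.5 and 24 CPM in hypoxia and 0 reads in all normoxia libraries, so it was at least 755-fold higher in hypoxia. Olr1, the receptor LOX-1 for oxidised low-density lipoprotein, had 7.36, 5.93 and 6.7 CPM in hypoxia, against 0.072, 0 and 0 CPM in normoxia (log2 fold change 7.88). Apln, apelin, a vasodilator peptide, had 60.9, 62.6 and 73.9 CPM in hypoxia, against 1.08, 1.14 and 0.867 CPM in normoxia (log2 fold change 5.99). Kng1 and Olr1 were at or near 0 in normoxia, and Apln was low. Mt2, a metallothionein that binds zinc, had 198, 348 and 317 CPM in hypoxia, against 4.18, 5.6 and 4.34 CPM in normoxia (log2 fold change 5.93). Kng2, Gpr35 (a G protein-coupled receptor), Lipg (endothelial lipase) and Il18rap (a subunit of the interleukin 18 receptor) rose by 6.4, 8.43, 6.58 and 6.25 on the log2 scale. Epithelial genes were among them as well: Krt19 had 538, 667 and 508 CPM in hypoxia, against 11.8, 10.6 and 11.9 CPM in normoxia, and Krt13, Sprr1a and Fat2 rose by 5.72, 6.16 and 6.1. Tbc1d30, Smtnl2, Tnip3, O3far1 (an omega-3 fatty acid receptor) and Acsbg1 (an acyl-CoA synthetase) were in the set, at 6.63, 6.35, 6.32, 6.18 and 5.95, as were Ankrd37 and Lss. Kng1 and Kng2 are close paralogues, and reads that map to both were not counted, so their levels are uncertain.

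The 20 largest falls included matrix and membrane genes. Csgalnact1, which starts chondroitin sulphate chains, had 0 reads in all hypoxia libraries, against 9.14, 9.0 and 10.05 CPM in normoxia, and was at least 239-fold lower in hypoxia. S1pr3, a receptor for sphingosine 1-phosphate on vascular muscle, had 0, 0.11 and 0.0677 CPM in hypoxia, against 12.1, 18 and 15.7 CPM in normoxia (log2 fold change -8.04). Nkd1, an inhibitor of Wnt signalling, had 0, 0 and 0.0677 CPM in hypoxia, against 13.5, 15.2 and 15.1 CPM in normoxia (log2 fold change -8.85). The hypoxia libraries were at or near 0 for each. Cd248 (endosialin, of pericytes and fibroblasts) had 0.49, 0.22 and 0.542 CPM in hypoxia, against 33.8, 45.7 and 40.8 CPM in normoxia (log2 fold change -6.48). Atp2b4, a calcium pump of the plasma membrane, had 1.05, 0.988 and 1.22 CPM in hypoxia, against 125, 122 and 121 CPM in normoxia (log2 fold change -6.8), and the potassium channel Kcnk3 (TASK-1) had 0.0701, 0.11 and 0 CPM in hypoxia, against 8.06, 8.84 and 9.36 CPM in normoxia (log2 fold change -7.24). Cntnap2, Gdpd2, Olfml1, Cpxm1, Fxyd1, Pi15 and Scara5 fell, with log2 fold changes of -8.91, -8.86, -8.13, -7.12, -6.9, -6.54 and -6.47. The set also held Lum, Eln, Aspn, Adamts4, Itga8, Ogn and Thbs2, given above.

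Per length the make-up of the transcriptome changed at its top. Levels per kilobase (RPKM, computed here from the counts and the exon length in the table) allow genes to be compared within a group. Ranks are over the 12791 tested genes with at least 500 exon bases, without predicted genes and small RNA. Ldha stood at 2209 ± 275 RPKM in hypoxia and 99.9 ± 2.53 RPKM in normoxia, and its rank was 9 in hypoxia and 453 in normoxia. Pkm2 stood at 3000.2 ± 240.3 RPKM in hypoxia and 199.96 ± 5.89 RPKM in normoxia, at ranks 4 and 156. Dcn stood at 253 ± 13.5 RPKM in hypoxia and 2086 ± 10.01 RPKM in normoxia, at ranks 164 and 4. Ogn stood at 8.65 ± 0.503 RPKM in hypoxia and 908 ± 41.4 RPKM in normoxia, at ranks 5968 and 18, and Col3a1 at 72 ± 5.99 RPKM in hypoxia and 1325 ± 28.8 RPKM in normoxia, at ranks 907 and 11. Thbs1, chosen after its values were seen, stayed near the top, at 682 ± 113 RPKM in hypoxia and 599.8 ± 16.1 RPKM in normoxia and ranks 54 and 36. All errors here are SD with 3 libraries per group.

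The same hypoxia comparison in KO vehicle cells and in WT POVPC cells shows where this response differs. Whether the hypoxia response of a gene differs was tested by the interaction term of the same fit, KO vehicle minus WT vehicle and WT POVPC minus WT vehicle. Both use the same WT vehicle libraries and are not independent. Hypoxia changed 65.4% of tested genes in KO vehicle cells, 66.1% in WT POVPC cells and 68.1% in WT vehicle cells. Against KO vehicle cells 5670 genes (39.1%) were called, with 2788 (19.2%) higher in the difference and 2882 (19.9%) lower, so 49.2% of calls were higher, against 60.1% with library size scaling alone and 38.4% with no filter on low counts. Against WT POVPC cells 3413 genes (23.5%) were called, with 1466 (10.1%) higher and 1947 (13.4%) lower, so 43% of calls were higher, against 57.8% with library size scaling alone. Depth was uneven in those cells, with 11618385 reads in the smallest KO vehicle library and 8063121 in the smallest WT POVPC library, both in hypoxia. These libraries had 8.07 and 9.24 discarded multiply mapping alignments per counted read. The part of this in the differences was not tested.

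Glycolysis and cholesterol synthesis had positive medians in all 3 settings, the highest in WT vehicle cells. The median log2 fold change of glycolysis genes was 3.11 in KO vehicle, 2.81 in WT POVPC and 3.7 in WT vehicle cells, beside medians of all genes of 0.015, -0.024 and -0.032. Of its 21 tested members the difference was called lower for 13 and higher for 2 against KO vehicle cells, and lower for 14 and higher for 0 against WT POVPC cells. Pgk1 rose by 4.18 in KO vehicle, 4.07 in WT POVPC and 4.86 in WT vehicle cells, differences of -0.68 ± 0.11 and -0.79 ± 0.11 (SE, edgeR adjusted p = 7.2e-06 and 1.6e-06). Slc2a1 differed the other way between the KO and WT lines, with 4.39 in KO vehicle and 3.7 in WT vehicle cells. Cholesterol synthesis had medians of 2.58 in KO vehicle, 2.94 in WT POVPC and 4.06 in WT vehicle cells, and 23 of 24 members were called lower against KO vehicle and 23 against WT POVPC. Cyp51 differed by -1.45 ± 0.14 and -0.99 ± 0.14 on the log2 scale (SE).

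Further lists also differed between the settings. NRF2 targets had medians of 0.27 in KO vehicle, 0.77 in WT POVPC and 1.31 in WT vehicle cells, and 18 of 18 were called lower against KO vehicle. Immediate early factors had 16 of 22 called lower and 2 higher against KO vehicle. Mitosis genes, which moved little in WT vehicle cells (median -0.26), had medians of -2.41 in KO vehicle and -2.13 in WT POVPC cells, and 24 of 26 were called lower against KO vehicle. Cdk1 had log2 fold changes of -3.73 in KO vehicle, -3.0 in WT POVPC and -0.95 in WT vehicle cells. Collagen chains had medians of -2.38 in KO vehicle, -2.97 in WT POVPC and -2.67 in WT vehicle cells, with 6 of 21 called higher and 8 lower against KO vehicle. Col3a1 had log2 fold changes of -1.54 in KO vehicle, -5.07 in WT POVPC and -4.2 in WT vehicle cells.

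Single genes differed widely between the settings. Kng1 averaged 0.0422 CPM in hypoxia and 0.0926 CPM in normoxia in KO vehicle cells, so its rise in WT vehicle cells had no counterpart there. Mme (neprilysin, a peptidase) had log2 fold changes of 3.63 in KO vehicle and -4.88 in WT vehicle cells, and Rorb of 5.96 and -1.54. Timp1, an inhibitor of metalloproteinases chosen after its values were seen, had -1.92 in KO vehicle, -1.09 in WT POVPC and 2.41 in WT vehicle cells. Eln had -5.03 in KO vehicle, -4.44 in WT POVPC and -10.56 in WT vehicle cells. Nkd1 had -3.77 in WT POVPC and -8.85 in WT vehicle cells. Both genes were near background in WT vehicle hypoxia, so their WT vehicle fold changes rest on few reads there.

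**Figure D5:**
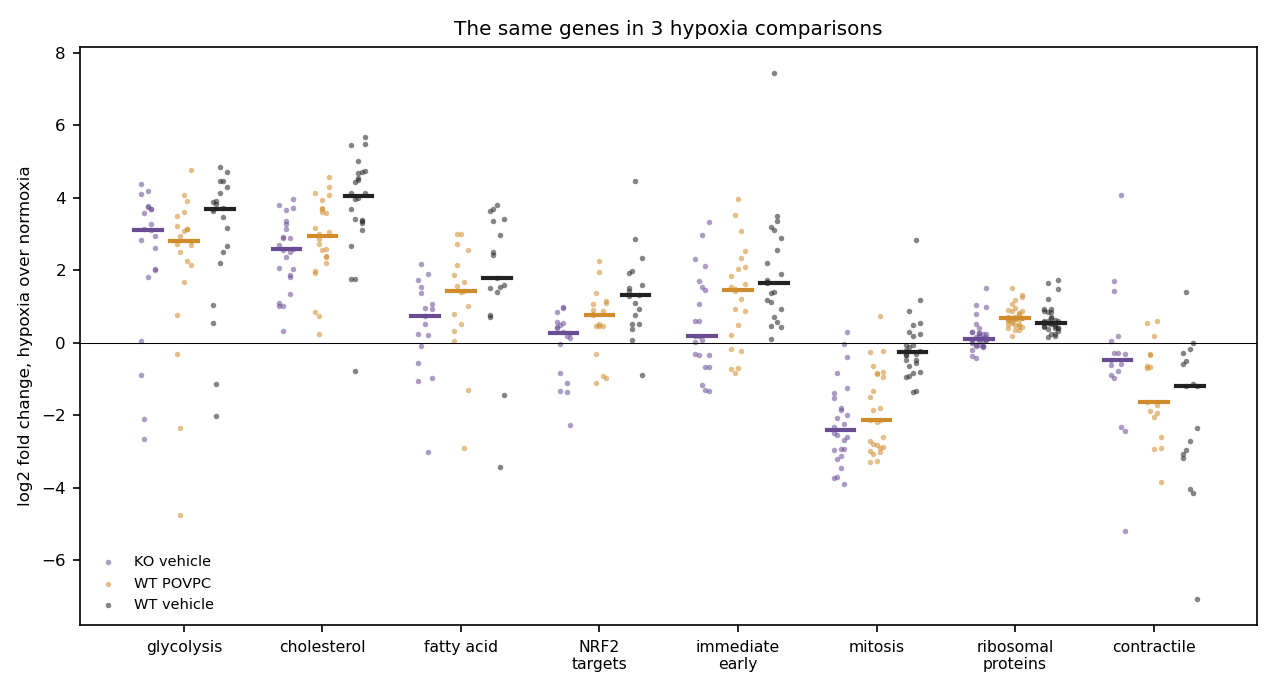
Log2 fold change (hypoxia over normoxia) of members of 8 gene lists in KO vehicle, WT POVPC and WT vehicle cells, from left to right in each panel. Points are genes and bars are medians, and the comparisons with WT vehicle share its libraries. The glycolysis medians are 3.11, 2.81 and 3.70, and the mitosis medians are -2.41, -2.13 and -0.26.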

How the data were processed

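RNA of the 6 WT vehicle libraries was sequenced on an Illumina instrument, per the labels. Per the file headers, the authors counted reads over exons (UCSC genes, mm9) with featureCounts 1.4.4 and added the counts up by gene symbol. These raw counts are unnormalised. Strand was not used, so overlapping and antisense genes cannot be told apart. Mates were counted singly, and multiply mapping reads were left out. The submitters' processing notes name CASAVA, STAR, Subread, DESeq2 and mm9.

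Counts were fitted with edgeR 4.0.16 in R 4.3.3 over the 24 culture libraries, as 8 groups of 3, which share 1 estimate of the spread (filterByExpr, minimum count 10 and total 15, TMM, robust quasi-likelihood). The fit was also run on simulated counts in which few genes changed. That run does not check the scaling for data where most tested genes change, as here. Deviations of same-numbered libraries correlated by 0.031, -0.027 and -0.053, so numbers were not taken as pairs. RPKM, promoter motifs and list medians were computed here, in Python 3.11.15 for motifs and figures. Promoters, microRNA and coordinates are RefSeq's, on GRCm38.p6. A count of 0 over a group was bounded with 3 counts, which covers counting error at most. Since both mates of a pair can add to a count, the bounds given as at least so many fold may be too large.

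The members and 37 gene lists were chosen with earlier results of these data known. Named genes are the 4 given markers, the 20 largest changes per direction (called, at least 5 CPM in the higher group, groups not overlapping), per list the 10 smallest p-values (all members of lists of up to 16 genes), and the 8 largest differences per interaction, and others are said to be chosen after their values were seen. Alternatives were RLE or library size scaling, other filters, a 2-fold minimum, halved counts, the compared groups alone, no ribosomal and small RNA genes, no robust estimation, a replicate block, leaving out each library, and DESeq2 1.42.0. The 8 lesion libraries were not used here, and some genes that the lists hold or the rule names are not reported here.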

Additional observations from a re-analysis of the deposited data

Results flagged for a closer look

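The hypoxia response of WT vehicle cells differed from that of KO vehicle cells, by the interaction test, for 5670 genes, and 197 of the genes named here were among them. The 8 genes with the largest differences, KO vehicle minus WT vehicle, stood out for their size on the log2 scale. Kng1 differed by -12.9, Psca by -9.23 and Il18rap by -7.7, all higher in hypoxia in WT vehicle cells and not in KO vehicle cells. Psca was near background in WT vehicle cells, with a mean of 0.511 CPM in hypoxia and 0 reads in normoxia. Its rise there was bounded at 3.89 on the log2 scale. Genes were named here only with a mean of at least 5 CPM in 1 of the groups compared, for Psca a KO vehicle group. Its difference of -9.23 thus also holds its change in KO vehicle cells, and the part of each was not tested. Mme differed by 8.51, Rorb by 7.5, Csgalnact1 by 7.37 and Kcnk3 by 6.81, and these fell in WT vehicle cells. Mcpt2, a mast cell protease, differed by 6.65, with 0.14, 0.11 and 0.406 CPM in hypoxia, against 0.288, 0.0636 and 0.398 CPM in normoxia in WT vehicle cells, where its groups overlapped, and a log2 fold change of 6.59 in KO vehicle cells. Kng1, Psca and Csgalnact1 had 0 reads in 1 of the WT vehicle groups, so their fitted values depend on the prior count.

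The response of WT vehicle cells differed from that of WT POVPC cells for 3413 genes, and 152 of the genes named here were among them. The 8 largest differences, WT POVPC minus WT vehicle, were those of Kng1 (-8.25), Serpina3i (-7.03), Eln (6.12), Ly6a (-6.09), Wif1 (-5.82), C4bp (-5.4), Ly6c1 (-5.21) and Nkd1 (5.09). Ly6a had log2 fold changes of -3.49 in WT POVPC and 2.6 in WT vehicle cells, and Wif1, a Wnt inhibitor, of -3.92 and 1.9. C4bp, a regulator of complement, had -0.37 in WT POVPC and 5.03 in WT vehicle cells, Serpina3i had -10.24 and -3.21, and Ly6c1 had -2.75 and 2.46. Kng1, Eln and Nkd1 were at or near background in a WT vehicle group, so their fitted differences depend on the prior count. Each test uses the same WT vehicle libraries.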

How the results depend on the processing

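The 9866 calls became 2837 when a change was tested against a 2-fold minimum instead of 0, and the interaction calls became 872 (KO vehicle minus WT vehicle) and 314 (WT POVPC minus WT vehicle). The other settings gave 8473 to 9920 calls. Leaving out 1 library gave 9339 to 9531 calls for the hypoxia comparison, 5095 to 5933 for the KO vehicle interaction and 2833 to 3801 for the WT POVPC interaction. A replicate block gave 9827, 5617 and 3336 calls, and since same-numbered libraries did not deviate together (correlations of 0.031, -0.027 and -0.053) the block is not read as a pairing. Library size scaling alone turned genes that did not pass the test to a negative log2 fold change: Atp6v1a -0.046, Hif1an -0.056, Hsf1 -0.086, Hspb8 -0.033, Plod3 -0.069 and Rad52 -0.032. Mcpt2 ran from -0.89 to 0.45 without 1 library, against a value of -0.056 with all. The causes were not tested. Among the lists, leaving out 1 library moved some small counts by over 1.5 times: lower oxidative phosphorylation subunits were 3 instead of 6 without normoxia library 3, lower adventitial fibroblast genes 3 instead of 5 without hypoxia library 2, lower replication genes 1 instead of 2 without hypoxia library 3, lower repair genes 5 instead of 3 without normoxia library 2, and higher macrophage genes 1 instead of 2 without hypoxia library 1 or 2 or normoxia library 1. Genes near 0 reads in either group, such as Park2, Car9, Mcpt2, Eln, Nkd1 or Olr1, are limited by depth.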
